A study of Homo sapiens with 12 samples.

Results

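The genes described here encode fibronectin (FN1) and 7 matricellular proteins: thrombospondin 1 and 2 (THBS1, THBS2), tenascin C (TNC), the TGF-β-induced protein (TGFBI), SPARC, periostin (POSTN) and osteopontin (SPP1). These 8 genes were taken by symbol from a table of 57500 genes, in which each has 1 row, and all 8 are followed through every library. The libraries come from 3 established cancer lines of human origin and form 4 groups, each with 3 biological replicates. SW480 (primary colorectal tumour) and SW620 (a metastatic site of the same patient) were untreated. PEO4, an ovarian cancer line, had standard medium (control) or medium with recombinant TGF-β at 10 ng/mL for 6 days. All groups grew with fetal bovine serum, PEO4 in RPMI 1640 and the SW lines in DMEM, so medium and line cannot be told apart between PEO4 and the SW lines. Each tumour is represented by a single line, and the p-values measure the spread between cultures of that line.

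Fibronectin is a large secreted glycoprotein that cells pull into fibrils through integrins, above all α5β1, which reads an Arg-Gly-Asp motif. Matricellular proteins are secreted into the same matrix but serve less as scaffold than as signals: they bind integrins, CD44, CD36 or CD47, other matrix proteins and growth factors, and they change adhesion and migration. TGF-β is a classical inducer of several of them, and thrombospondin 1 can in turn release TGF-β from its latent complex.

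Library totals ran from 14531420 to 22028956 gene-assigned counts. Levels below are counts per 1000000 (CPM) on totals scaled by TMM (trimmed mean of M values) over the 12 libraries. As a check of the treatment, PMEPA1, LTBP2 and COL7A1 rose in the libraries labelled TGFbeta, 3 of 7 known TGF-β response genes with an adjusted p under 0.05 (edgeR's quasi-likelihood test), where 1.27% of all genes tested passed as higher. That count was 6 without control replicate 1, 5 without control replicate 3, and 2 without control replicate 2, TGF-β replicate 1 or TGF-β replicate 2. One of them, PMEPA1, stood at 187 CPM in PEO4 control replicate 1 against 67.6 and 57.4 CPM in the other control libraries, and that library also stood apart in several members. Of the markers of cells that make these proteins in tissue, the fibroblast genes DCN, LUM, PDGFRA and COL1A2 were under 1 CPM on average in both PEO4 groups and in SW480. LUM was at 7.06 CPM in SW620. THY1 brought the summed fibroblast list of 6 genes to between 216 and 321 CPM in the PEO4 libraries, here on library totals without TMM. PDGFRB was at 1.78 CPM in SW480, 2.47 in SW620, 0.41 in PEO4 control and 1.18 with TGF-β, and passed in no comparison. Of 2 tested endothelial markers PECAM1 was higher in SW620 (log2 fold change 4.07) and VWF did not pass. The blood marker PTPRC, not tested there, had 2 counts in SW480 and 162 in SW620, 108 of them in 1 library. CD163 of the same list, also not tested there, had 1 and 18 counts, and CSF1R (-0.54) and CD14 (-0.12) did not pass. No endothelial, macrophage or blood marker passed in PEO4. Of 2 tested mesothelial markers UPK3B fell with TGF-β (log2 fold change -1.46) and LRRN4 did not pass (0.56). Of 5 Müllerian markers MSLN (-0.77) and WT1 (-0.47) fell, and MUC16 (-1.27), PAX8 (0.03) and SOX17 (0.15) did not pass. Between the SW lines LRRN4 was lower in SW620 (-3.57) and UPK3B did not pass (-0.48). WT1 (2.38) and MSLN (1.34) were higher in SW620, and MUC16 (-1.68), PAX8 (0.07) and SOX17 (0.25) did not pass. The part of this in the results below was not tested. The library of SW620 replicate 3 stood apart: STAC and NCCRP1, at 50 CPM or more in every PEO4 library and at most 3 counts in the other SW libraries, had 19 and 23 counts there, 1.25% of their PEO4 level. What such a share would amount to is given below for some genes, and its part in the results was not tested beyond leaving that library out. Among the genes where it is not given below, it corresponds to 166% to 246% of 9 FSTL1 counts and 49.6% to 96.9% of 5 EFEMP1 counts. For TNS1 it corresponds to 62.2% to 79.9% of 197 counts, for SPOCK1 to 26.6% to 55.1% of 6 and for LTBP2 to 9.55% to 63.7% of 86. Strand use in counting is not given in the sources used here, and THBS1, THBS2, TNC and SPARC overlap annotated genes on the opposite strand. No opposite-strand gene exceeded 66 counts in a library. That is far below the counts of THBS1, and it is of the size of those of THBS2. Such counts do not bound the reads lost or misassigned where exon bases are shared, and this was not tested.

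FN1, THBS1 and TGFBI rose together with TGF-β while SPARC did not pass the test, so the 250 bases before the start of these 4 genes are shown, from RefSeq on GRCh38.p14, 5′ to 3′ on the gene's strand. All 8 genes matched the promoter table. The windows are chr2:215436069-215436318 (minus strand) for FN1, chr15:39580829-39581078 (plus) for THBS1, chr5:136028738-136028987 (plus) for TGFBI and chr5:151686916-151687165 (minus) for SPARC. Capitals mark the matches to the motifs that were searched on both strands.
FN1: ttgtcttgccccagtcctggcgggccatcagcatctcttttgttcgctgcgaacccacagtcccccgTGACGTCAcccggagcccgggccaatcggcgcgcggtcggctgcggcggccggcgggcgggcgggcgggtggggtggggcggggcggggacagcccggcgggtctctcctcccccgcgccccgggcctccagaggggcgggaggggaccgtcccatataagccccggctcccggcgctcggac
THBS1: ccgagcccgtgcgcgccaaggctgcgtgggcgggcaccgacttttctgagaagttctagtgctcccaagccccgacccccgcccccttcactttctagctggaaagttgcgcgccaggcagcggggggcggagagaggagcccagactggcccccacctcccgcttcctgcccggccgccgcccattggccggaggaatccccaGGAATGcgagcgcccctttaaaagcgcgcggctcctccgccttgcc
TGFBI: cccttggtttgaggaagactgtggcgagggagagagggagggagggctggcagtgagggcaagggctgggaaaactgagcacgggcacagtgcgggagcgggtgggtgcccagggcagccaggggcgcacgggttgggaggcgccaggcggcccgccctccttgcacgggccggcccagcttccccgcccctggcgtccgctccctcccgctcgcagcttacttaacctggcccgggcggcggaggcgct
SPARC: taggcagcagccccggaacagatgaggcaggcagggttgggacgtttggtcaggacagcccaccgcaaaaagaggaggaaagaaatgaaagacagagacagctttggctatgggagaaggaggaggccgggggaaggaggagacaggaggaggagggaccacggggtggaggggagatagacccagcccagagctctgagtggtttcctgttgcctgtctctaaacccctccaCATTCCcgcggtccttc
The motifs searched were GTCTAGAC and CAGACA, which SMAD proteins bind, TGANTCA for AP-1, TGACGTCA, the cyclic AMP response element, and GGAATG for TEAD factors. FN1 held 1 cyclic AMP response element, from -183 to -176 with the first transcribed base as 0, a motif present in 1.65% of 35116 promoter windows of this length. THBS1 held 1 GGAATG and SPARC 1 match on the other strand, a motif found in 11.9% of windows and also in that of THBS2. TGFBI held none of the 5. CAGACA, found in 13.6% of all windows, was present in those of THBS2, TNC and SPP1, and TGANTCA (6.57%) in that of POSTN. None of the 8 windows held GTCTAGAC, which 0.182% of all windows do.

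**Figure D1:**
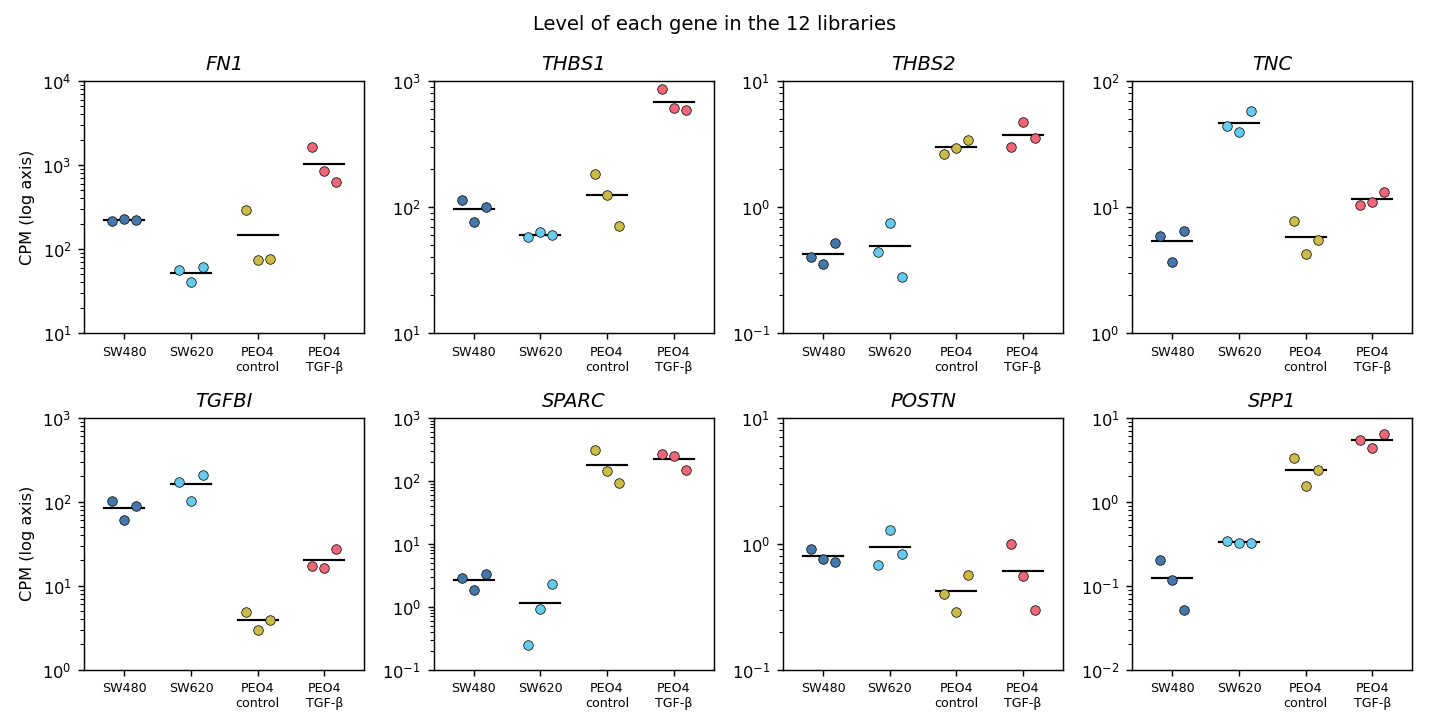
Level of each of the 8 genes in the 12 libraries, in TMM-scaled CPM on a log axis whose range differs between panels. Each point is 1 library (replicates 1 to 3 from left to right) and each line is the mean of a group; FN1 and THBS1 are highest in PEO4 with TGF-β, TNC and TGFBI in SW620, and SPARC in both PEO4 groups.

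FN1 (ENSG00000115414, chromosome 2, 215360440 to 215436172 on GRCh38) was lower in SW620 than in SW480 and rose in PEO4 with TGF-β. The 3 SW480 libraries held 219, 228 and 223 CPM, and the 3 SW620 libraries 55.8, 40.0 and 61.6 CPM. The lines did not overlap, and SW480 replicates lay closer to each other than those of any other group. FN1 fell by 2.07 ± 0.20 (SE) on the log2 scale in SW620 (edgeR's quasi-likelihood test, adjusted p 7.20e-05), a 4.26-fold difference of the means. The PEO4-like share of SW620 replicate 3 corresponds to 2.74% (at the control PEO4 level) or 19.1% (at the treated level) of its 1327 FN1 counts. Leaving that library out gave -2.21.

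In PEO4 control, FN1 stood at 290.2, 74.95 and 76.4 CPM in replicates 1 to 3, and with TGF-β at 1642, 844 and 626 CPM. Every treated library was above every control library, and replicate 1 was the highest of its group in both groups. The log2 fold change was 2.81 ± 0.55 (SE), a 7.05-fold ratio of means, and edgeR's adjusted p was 0.0365. The call was lost without control replicate 2 (adjusted p 0.188), control replicate 3 (0.0805), TGF-β replicate 1 (0.117) or TGF-β replicate 2 (0.0978), all in edgeR's test. Leaving out control replicate 1, the control library with the most FN1, gave 3.74, and leaving out replicate 1 of both groups gave 3.22 (edgeR's adjusted p 0.000183). Ordered by mean, PEO4 with TGF-β (1037 ± 535 CPM, SD, n = 3) was followed by SW480 (223 ± 4.71), PEO4 control (147 ± 124) and SW620 (52.4 ± 11.2), and SW480 and PEO4 control overlapped.

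The thrombospondins are calcium-binding multimers. THBS1 (ENSG00000137801, chromosome 15, 39581079 to 39599466), which inhibits angiogenesis through CD36 and CD47, followed FN1 in direction in both comparisons. With TGF-β it went from 181, 124 and 70.3 CPM in the control libraries to 867, 607 and 585 CPM. The groups were far apart, with the lowest treated library above the highest control library. THBS1 rose by 2.43 ± 0.30 (SE) on the log2 scale, 5.48-fold in the means. The adjusted p from edgeR was 0.00586 and became 0.0577 without control replicate 2.

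Between the SW lines the difference in THBS1 was small. SW480 held 114, 75.8 and 101 CPM and SW620 58.3, 63.1 and 60.2 CPM. The lines did not overlap, and THBS1 fell by 0.66 ± 0.18 (SE) in SW620 on the log2 scale (edgeR's adjusted p 0.0232). The PEO4-like share corresponds to 2.42% to 12.98% of the THBS1 counts of SW620 replicate 3. The call was lost without SW480 replicate 1 (adjusted p 0.161), SW480 replicate 3 (0.0997) or SW620 replicate 1 (0.131) in edgeR's test. Mean THBS1 was 687 ± 157 CPM in PEO4 with TGF-β, 125 ± 55.6 in PEO4 control, 96.7 ± 19.2 in SW480 and 60.5 ± 2.43 in SW620 (SD, n = 3), and PEO4 control overlapped SW480.

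THBS2 (ENSG00000186340, chromosome 6, 169215780 to 169254044), the paralogue, was low throughout. The PEO4 control libraries held 2.64, 2.94 and 3.42 CPM and the treated ones 2.97, 4.74 and 3.51 CPM. These groups overlapped, and the log2 fold change of 0.28 ± 0.24 (SE) did not pass (edgeR's adjusted p 0.62). The SW libraries had 6 to 14 counts each, too few for the count filter, and the SW620 over SW480 ratio of summed counts was 1.12 with a 95% exact binomial interval from 0.632 to 2.02. An annotated antisense gene at THBS2, BX322234.1, had 24 to 66 counts in the PEO4 libraries against 46 to 86 for THBS2. Their annotated exons do not overlap, and whether reads of either gene were counted for the other was not tested.

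Tenascin C is a hexameric protein of embryonic, wound and tumour matrix that weakens adhesion to fibronectin. TNC (ENSG00000041982, chromosome 9, 115019578 to 115118257) had the largest difference between the SW lines among these genes. SW480 held 5.89, 3.68 and 6.48 CPM, and SW620 held 43.7, 39.2 and 57.6 CPM. The lines did not overlap, and TNC was 3.15 ± 0.25 (SE) higher in SW620 on the log2 scale, 8.76-fold in the means (edgeR's quasi-likelihood test, adjusted p 3.06e-05). TNC thus differed in the direction opposite to FN1.

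In PEO4, TNC stood at 7.74, 4.21 and 5.43 CPM in control and at 10.4, 10.9 and 13.3 CPM with TGF-β. The groups did not overlap, but the log2 fold change of 0.97 ± 0.21 (SE) did not pass the threshold (adjusted p 0.0542 in edgeR's quasi-likelihood test). It passed with DESeq2 here (adjusted p 0.00166) and in the authors' deposited table (log2 fold change 0.968, adjusted p 0.00215). Leaving out control replicate 1 also brought it past the threshold (1.22, edgeR's adjusted p 0.0101). It did not pass when any other single library was left out (edgeR's adjusted p 0.127 to 0.216). Nor did it pass in 1 edgeR model of all 12 libraries (adjusted p 0.102). Mean TNC was 46.8 ± 9.55 CPM in SW620, 11.5 ± 1.56 in PEO4 with TGF-β, 5.79 ± 1.79 in PEO4 control and 5.35 ± 1.48 in SW480 (SD, n = 3), and the last pair overlapped.

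TGFBI (ENSG00000120708, chromosome 5, 136028895 to 136063818) encodes a secreted adhesion protein of the fasciclin family, named for its induction by TGF-β. In PEO4 it stood at 4.93, 3.00 and 3.93 CPM in control and at 17.3, 16.3 and 27.2 CPM with TGF-β. Every treated library was above every control library, by 2.33 ± 0.25 (SE) on the log2 scale and 5.13-fold in the means (edgeR's adjusted p 0.00266). It is the member whose call was kept in PEO4 under all 17 alternatives and omissions of libraries, with an adjusted p of at most 0.0292.

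The untreated SW lines held more TGFBI than treated PEO4. SW480 had 103, 61.0 and 88.8 CPM and SW620 had 171, 102 and 209 CPM. SW620 replicate 2 lay just under the highest SW480 library, so the lines overlapped. TGFBI was 0.95 ± 0.29 (SE) higher in SW620 on the log2 scale (edgeR's adjusted p 0.0334), and the call was lost without SW480 replicate 2 (0.102), SW480 replicate 3 (0.0958), SW620 replicate 1 (0.114) or SW620 replicate 3 (0.0758) in edgeR's test. Mean TGFBI was 161 ± 54.1 CPM in SW620, 84.3 ± 21.4 in SW480, 20.3 ± 5.99 in PEO4 with TGF-β and 3.95 ± 0.966 in PEO4 control (SD, n = 3).

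SPARC, also called osteonectin, binds collagen and calcium and lowers cell spreading. SPARC (ENSG00000113140, chromosome 5, 151661096 to 151687165) was an abundant transcript of PEO4 and low in the SW lines. PEO4 control held 303, 142 and 92.4 CPM and PEO4 with TGF-β 262, 247 and 146.5 CPM. The groups overlapped widely, and the log2 fold change of 0.26 ± 0.37 (SE) did not pass (edgeR's adjusted p 0.771). Its direction turned to -0.04 without control replicate 3 and its size grew to 0.86 without control replicate 1.

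SW480 held 2.87, 1.87 and 3.29 CPM of SPARC and SW620 0.243, 0.915 and 2.27 CPM, the last in replicate 3. The mean of PEO4 control (179 ± 110 CPM, SD, n = 3) was 66.9-fold that of SW480 (2.68 ± 0.731). The PEO4-like share of SW620 replicate 3 corresponds to 44.5 SPARC counts at the level of control PEO4 and 53.1 at that of treated PEO4, where the library had 49. With all 6 libraries the log2 fold change of SW620 over SW480 was -1.20 ± 0.65 (SE; edgeR's adjusted p 0.208), and leaving out SW620 replicate 3 gave -2.21 (edgeR's adjusted p 0.0166), a change of call. What smaller PEO4-like shares of the other SW libraries would amount to for SPARC is given below.

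Periostin is a matrix protein of bone, tendon and tumour stroma, related to TGFBI. POSTN (ENSG00000133110, chromosome 13, 37562583 to 37598844) had between 5 and 24 counts in every library. All neighbouring groups overlapped, with means from 0.419 ± 0.141 CPM in PEO4 control to 0.936 ± 0.317 in SW620 (SD, n = 3). The SW log2 fold change was 0.25 ± 0.45 (SE; edgeR's adjusted p 0.726). In PEO4 the gene did not reach the count filter, and the TGF-β over control ratio of summed counts was 1.42, with an exact binomial interval from 0.809 to 2.52.

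Osteopontin is a phosphorylated glycoprotein that αvβ3 integrin and CD44 bind. SPP1 (ENSG00000118785, chromosome 4, 87975650 to 87983426) stood at 3.32, 1.56 and 2.38 CPM in PEO4 control and at 5.45, 4.41 and 6.42 CPM with TGF-β. The groups did not overlap, yet the log2 fold change of 1.14 ± 0.29 (SE) did not pass in edgeR's quasi-likelihood test (adjusted p 0.0835). It passed with DESeq2 here (adjusted p 0.0094) and in the authors' deposited table (log2 fold change 1.14, adjusted p 0.0113). Leaving out control replicate 1 likewise brought it past (1.43, edgeR's adjusted p 0.0278). SPP1 did not pass when any other single library was left out (edgeR's adjusted p 0.142 to 0.280). Nor did SPP1 pass in 1 edgeR model of all 12 libraries (adjusted p 0.206). Each SW480 library had 1 to 4 counts of it and each SW620 library 6 or 7, a ratio of summed counts of 2.66 with an exact binomial interval from 1.08 to 7.44 that covers counting error only, and it was too low to be tested.

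**Figure D2:**
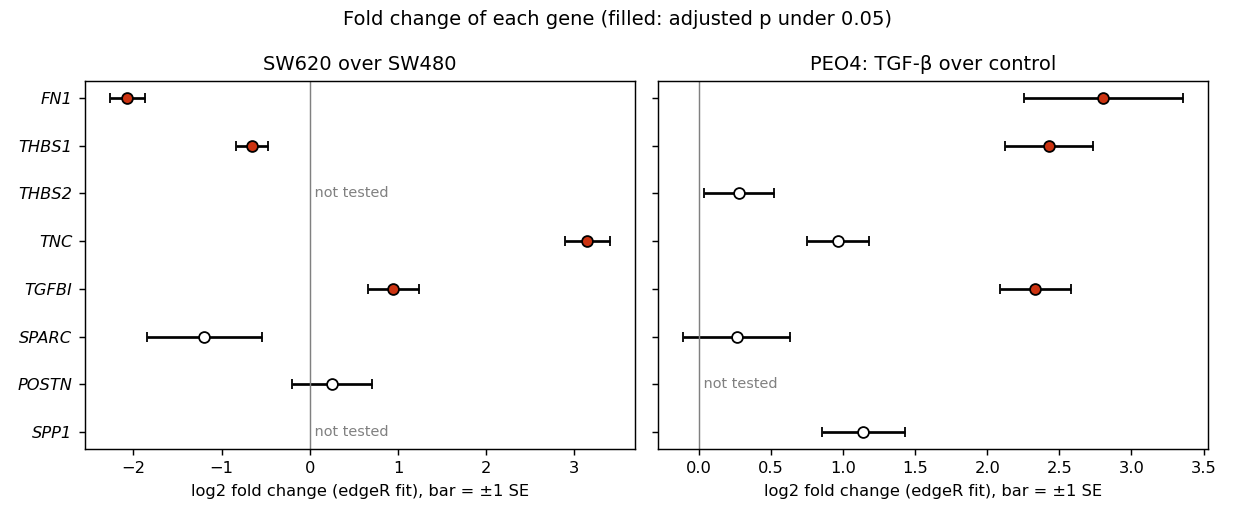
Fitted log2 fold change of each gene in both comparisons, with bars of 1 SE and filled points where edgeR's adjusted p was under 0.05; the x axes differ. In SW620, FN1 (-2.07) and TNC (3.15) lie on opposite sides of 0, and in PEO4 all 7 tested genes lie above it.

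Between the SW lines 4 of the 6 tested members passed, 2 higher (TNC, TGFBI) and 2 lower (FN1, THBS1) in SW620. Among all 20941 genes tested 30.5% passed, and 43.9% had groups that did not overlap, against 3 of the 6 members. The median log2 fold change of the members was -0.20 beside 0.03 over all genes, and it has no stable sign. It was -0.05 without SW480 replicate 1 and -0.06 without SW620 replicate 1, and positive where other members were tested: 0.23 with DESeq2 and 0.22 without the filter (8 members), 0.21 in the model of 12 libraries (8), and 0.28 with at least 10 counts in every library (5). The count fell to 2 without SW480 replicate 3 or without SW620 replicate 1. In PEO4, 3 of 7 tested members passed, all higher (FN1, THBS1, TGFBI), where 2.26% of 19064 genes passed and 1.27% passed as higher. Groups did not overlap for 5 of the 7, including TNC and SPP1, against 20% of all genes, and the members' median log2 fold change was 1.14 beside -0.02. Leaving out control replicate 1 gave 5, and leaving out control replicate 2 gave 1. Since the genes were chosen with earlier results of these data known, these counts are a description.

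FN1, SPARC and THBS1 varied more between PEO4 replicates than most genes. The highest FN1 library was 3.87 times the lowest in control and 2.63 times with TGF-β, where the median gene of at least 10 CPM had ratios of 1.203 and 1.167. These FN1 ratios exceeded those of 99.8% of 10122 genes in control and 99.6% of 10194 genes with TGF-β. For SPARC the ratios were 3.28 and 1.79, and for THBS1 2.58 and 1.48. Replicate 1 was the highest library of its group for all 3 genes in both groups. TNC, TGFBI and SPP1 were also highest in replicate 1 of the control group, but with TGF-β they were highest in replicate 3. TGFBI had a ratio of 1.665 with TGF-β, larger than that of THBS1. In SW480 the FN1 ratio was 1.04, above that of 2.89% of 10146 genes, while those of THBS1 (1.499) and TGFBI (1.689) were above 79.5% and 91.6%.

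The gene closest to FN1 in this spread, once each PEO4 group was centred on its own mean, was VIM, the intermediate filament vimentin of mesenchymal cells. The root-mean-square difference between the 2 genes over the 6 libraries was 0.06 on the log2 scale, where FN1 itself spread by 0.77, and 10254 genes were searched. VIM stood at 23.0, 6.16 and 6.36 CPM in control and at 58.7, 26.4 and 21.1 CPM with TGF-β. The next were the tetraspanin TSPAN5 (0.15) and ERVV-2 (0.15), an endogenous retroviral gene whose close copies make its counts uncertain. These genes are extremes of a search over all genes, and they describe these 6 libraries.

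**Figure D3:**
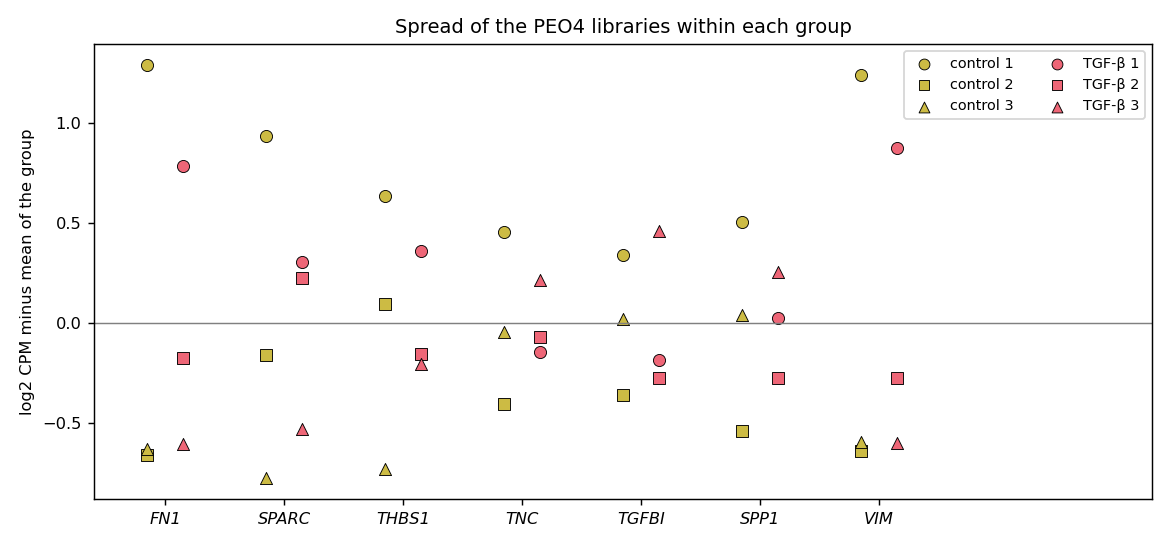
Deviation of each PEO4 library from the mean of its own group in log2 CPM, for 6 members and VIM; colour gives the group and shape the replicate. Control replicate 1 lies highest in its group for all 7 genes (1.29 for FN1), and TGF-β replicate 1 lies highest for FN1 (0.78), SPARC, THBS1 and VIM.

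Of 16 genes for integrin subunits and other receptors of these proteins, 11 were tested, 8 were lower in SW620 and 0 higher, where 17% of all genes tested were lower and 13.5% higher. The median log2 fold change was -1.88 over these 11. It was between -0.70 and -0.51 without SW480 replicate 1, 2 or 3 or SW620 replicate 1, where 13 or 14 receptors were tested, and -0.60 with DESeq2 or without the filter, where 15 were. The laminin and thrombospondin receptor subunit ITGA3 had a log2 fold change of -4.04 ± 0.27 (SE), the hyaluronan and osteopontin receptor CD44 -2.52 ± 0.19, the vitronectin receptor subunits ITGB5 -2.42 ± 0.24 and ITGAV -1.99 ± 0.21, and the fibronectin co-receptor SDC4 -2.29 ± 0.32. ITGA9 (-1.88), ITGA5 (-0.60), the fibronectin-specific α5 subunit, and LRP1 (-0.56), which clears thrombospondin, were also lower. ITGB1, the partner of α5, did not pass (133.7 ± 28.2 CPM in SW480, 193 ± 60.4 in SW620), nor did ITGB6 (0.03) and CD47 (-0.04). The PEO4-like share corresponds to 50.4% to 57.5% of the ITGA3 counts of SW620 replicate 3 and to 11.2% to 13.96% of those of SDC4, and without that library 8 of 11 were again lower. The count was 5 of 13 without SW480 replicate 1 and 5 of 14 without SW620 replicate 1.

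Of 10 genes for fibronectin fibril assembly and adhesion adaptors, 4 were lower in SW620 and 0 higher, beside the same 17% and 13.5% of all genes, with a median of -0.54. With library totals in place of TMM, 6 were lower and 1 higher. TGM2, the transglutaminase that crosslinks fibronectin and bridges it to integrins, fell from 3068 ± 994 CPM in SW480 to 22.0 ± 4.50 in SW620 (SD, n = 3). On the log2 scale this was -7.10 ± 0.39 (SE; edgeR's adjusted p 5.19e-06). The focal adhesion proteins LIMS1 (-2.38), PXN (-1.16) and FERMT2 (-0.71) were the others. The count was 6 without SW620 replicate 3, and 3 without SW480 replicate 1, SW480 replicate 3 or SW620 replicate 1.

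In PEO4, 1 receptor and no adaptor passed, where 2.26% of all genes tested passed and 1.27% passed as higher. Of 13 receptors tested, ITGB5 rose, from 80.2 ± 15.1 to 127.5 ± 10.5 CPM (SD, n = 3), by 0.64 ± 0.12 (SE) on the log2 scale (edgeR's adjusted p 0.0287). Leaving out control replicate 1 left 4 receptors past the threshold, where the count over all genes rose from 431 to 1080. Leaving out any 1 of the other 5 libraries left 0 receptors. CD44 stood at 123 ± 82.2 CPM in control and 353 ± 112 with TGF-β and did not pass (log2 fold change 1.51 ± 0.39, edgeR's adjusted p 0.0922). Of the 10 adaptors 0 passed with edgeR, where 5 (3 higher, 2 lower) had an unadjusted p under 0.05; DESeq2 called 1 higher and 1 lower, and limma-voom 1 lower. The medians were 0.24 for receptors and 0.16 for adaptors, beside -0.02 over all genes. The receptor median was -0.0052 without TGF-β replicate 1, 0.11 without control replicate 2 and 0.03 with DESeq2.

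Of 25 other matricellular genes, 18 were tested in the SW lines, 6 higher and 5 lower in SW620, against 13.5% and 17% of all genes, with a median of 0.97. The SPARC relative SMOC2 went from 0.301 ± 0.00835 CPM in SW480, 17 counts over the group, to 62.5 ± 12.6 in SW620, a ratio of summed counts of 209.5 with a 95% exact binomial interval from 131 to 360.0. The fibulin FBLN2 (9 counts in SW480, 105 in SW620), THBS4 (log2 fold change 2.04), TNXB (1.24), FBLN1 (0.99) and THBS3 (0.99) were also higher. FBLN5 (207 counts in SW480, 10 in SW620), NOV (118 and 8), CYR61 (-1.54), EFEMP2 (-1.17) and CTGF (-1.12) were lower, and the PEO4-like share corresponds to 27.6% to 36.6% of the CTGF counts of SW620 replicate 3. For NOV it corresponds to 81.1% to 112% of 6 counts there, for FBLN5 to 32.5% to 37.2% of 5 counts, for CYR61 to 16.2% to 16.5% and for TNXB to 14.8% to 18.7%. The count higher fell to 3 without SW480 replicate 3 or SW620 replicate 1. In PEO4, 1 of 17 passed, where 2.26% of all genes did. This was EFEMP1, which fell from 19.1 ± 0.810 to 10.2 ± 0.972 CPM (SD, n = 3; log2 fold change -0.95 ± 0.12, edgeR's adjusted p 0.00524). CYR61 and CTGF, the CCN proteins often named beside THBS1, did not pass there (log2 fold changes 0.04 ± 0.25 and -0.39 ± 0.38).

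**Figure D4:**
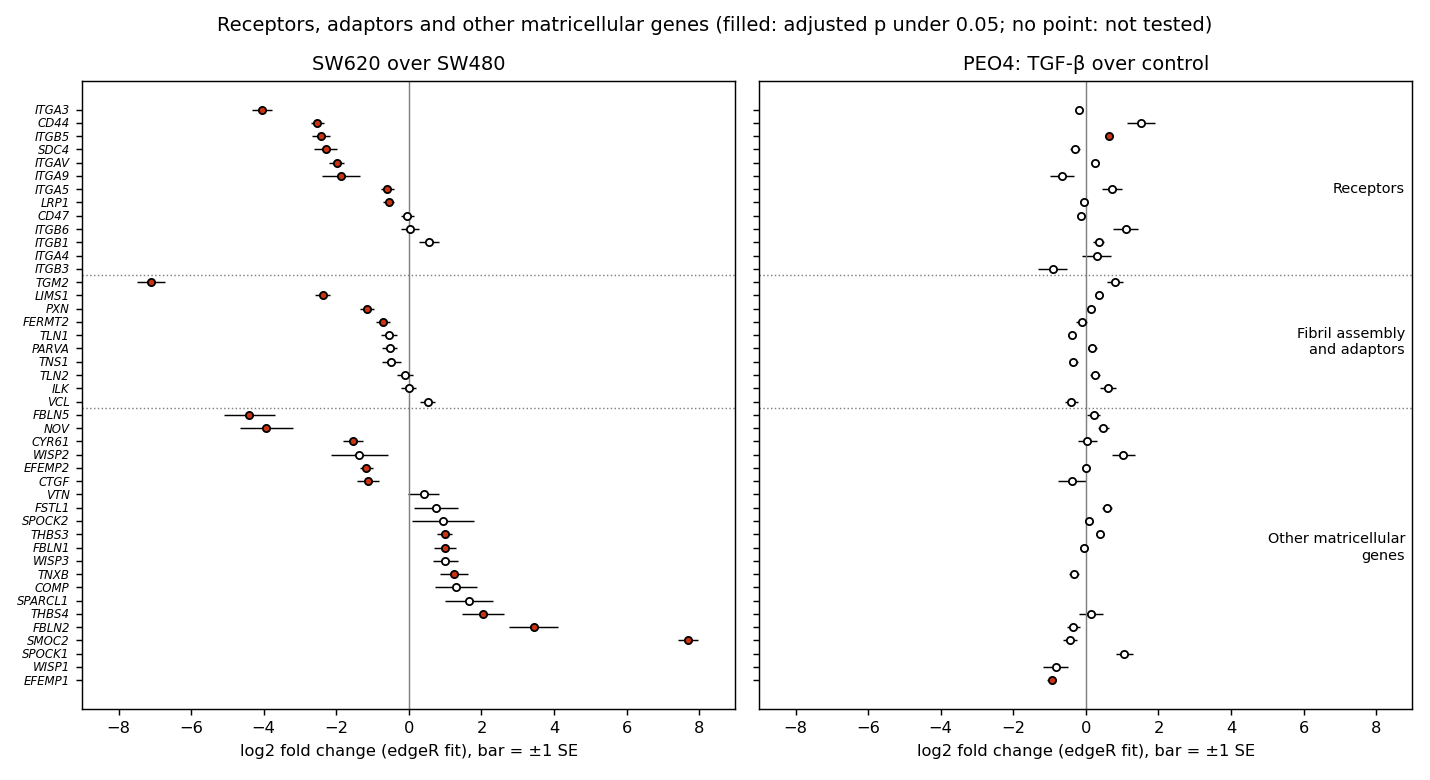
Fitted log2 fold changes (bars of 1 SE, filled where edgeR's adjusted p was under 0.05) of receptors, fibril assembly and adaptor genes, and other matricellular genes in both comparisons on the same axis. In the SW lines 8 receptors and 4 adaptors are filled, all below 0, and in PEO4 the filled points are ITGB5 (0.64) and EFEMP1 (-0.95).

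Compared per length, as CPM per kilobase of annotated exon, the leading members differed between groups. In PEO4 control SPARC was first (37.1 ± 22.8), before THBS1 (13.7 ± 6.07) and FN1 (8.50 ± 7.15; SD, n = 3). With TGF-β, THBS1 (75.0 ± 17.1), FN1 (59.9 ± 30.9) and SPARC (45.3 ± 13.03) followed in that order; FN1 overlapped both of the others, and THBS1 lay above SPARC in every library. In SW480, FN1 (12.9 ± 0.272), TGFBI (10.8 ± 2.74) and THBS1 (10.6 ± 2.10) led, with FN1 overlapping TGFBI and above THBS1 in every library. In SW620 TGFBI led (20.6 ± 6.93), before THBS1 (6.61), TNC (4.86) and FN1 (3.03). THBS2 and POSTN were under 1 in every group on this scale. The annotated exons of FN1 sum to 17.3 kb and its longest coding transcript is 8.91 kb. By the longest coding transcript the order turned in places, with TGFBI (30.1) above FN1 (25.1) in SW480 and FN1 (117) above THBS1 (88.3) in treated PEO4.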

How the data were processed

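The labels describe total RNA, depleted of ribosomal RNA and treated with DNase, from 12 libraries. The deposited table holds whole-number counts per Ensembl gene. Trimmomatic 0.36, STAR 2.5.2b, featureCounts in Subread 1.5.2, DESeq2 and GRCh38 are named in the submitters' processing notes; annotation, strand setting and read filters are not given in the sources used here. The authors' deposited tables of each comparison hold a signal for every library (counts over a size factor) and, for each gene listed, a log2 fold change and a p-value with its adjusted p-value, per the file headers; they were used for the authors' calls only. THBS2 and SPP1 have no row in the SW table as used here, nor POSTN in the PEO4 table.

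Both comparisons used edgeR 4.0.16 (R 4.3.3) on the 6 libraries concerned: filterByExpr, TMM, glmQLFit and glmQLFTest, two-sided, Benjamini-Hochberg over all genes, threshold 0.05. An SE is the size of the log2 fold change divided by the root of F. Biological coefficients of variation were 0.274 (SW) and 0.152 (PEO4). Levels are CPM on TMM totals of all 12 libraries. With 3 against 3 libraries an exact permutation p, two-sided, cannot go below 0.1, so none is given. Ratio intervals cover counting error only. Positions and lengths are from GENCODE 29. The fit was tested on simulated data in which few genes changed. Of 20207 SW genes 93 changed 2-fold and 94 changed 4-fold, and of 18595 PEO4 genes 100 and 95. The 2-fold changes were recovered in 19.4% (SW) and 66% (PEO4) of cases, 4-fold changes in 69.2% and 89.5%. Of the calls 7.78% and 10.1% were false. In the data 30.5% of the SW genes passed, so the simulated SW shares need not hold there.

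The members and lists were chosen with earlier results of these data known. All 8 members are named whatever their result, list genes where past the threshold (up to 8 per list and comparison by size), and the 3 genes closest in pattern to each member of at least 10 CPM; further list genes are named after their values were seen. Alternatives were RLE scaling, library totals, DESeq2 1.42.0, limma-voom (limma 3.58.1), no count filter, at least 10 counts in every library, 1 model of 12 libraries, the replicate block and leaving out each library; a GC correction (loess, span 0.3), also with the block, the omission of both PEO4 replicate 1 libraries, a 10 CPM minimum for the PEO4-like share and the coding-transcript length were chosen after seeing the data.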

Additional observations from a re-analysis of the deposited data

How the results depend on the processing

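FN1 and TNC between the SW lines and TGFBI in PEO4 kept their call under every alternative run. With a replicate block, the SW count of genes was 10667 (11254 with the GC correction, 6318 higher and 4936 lower, against 2835 and 3550) and the PEO4 count 2102 (1823), against 6385 and 431; SPARC in SW620 then passed (-1.41; -1.26 with GC), as did TNC (0.98; 0.97) and SPP1 (1.17; 1.22) in PEO4, for 5 members. Whether the replicate numbers pair the libraries was not settled. Deviations of same-numbered libraries correlated by 0.02, 0.67 and 0.57 (SW) and 0.29, -0.14 and 0.48 (PEO4) across genes. SW480 replicate 1 correlated best with SW620 replicate 3 (0.27), and PEO4 control replicate 2 with TGF-β replicate 1 (0.24). The other SW480 and PEO4 control libraries correlated best with their own number. In PEO4 the count of genes was 923 with DESeq2, 1457 without the count filter and 165 in 1 model of 12 libraries; the count of members was 5 with DESeq2 and 5 without the filter. There TNC was 0.98 (DESeq2), 0.99 (limma-voom) and 0.99 (no filter), and SPP1 1.15 (DESeq2) and 1.17 (no filter), all past the threshold. SPP1 did not pass with limma-voom (adjusted p 0.0791), and neither gene passed in the 12-library model. THBS1 in SW620 lost its call in the 12-library model (-0.68) and with the GC correction (-0.54), which moved the median of all SW genes from 0.03 to 0.15. Receptors past the threshold in PEO4 numbered 5 without the filter, 0 in the 12-library model and 6 with the block (5 higher, 1 lower). The cause of these moves was not tested. Leaving out libraries gave 4253 to 7419 genes and 2 to 4 members (SW) and 72 to 1080 genes and 1 to 5 members (PEO4). Log2 fold changes then ran from -0.82 to -0.49 (THBS1), 0.71 to 1.24 (TGFBI) and -2.21 to -0.68 (SPARC) in SW620, and in PEO4 from 2.30 to 3.74 (FN1), 2.15 to 2.78 (THBS1), 0.80 to 1.28 (TNC), 0.93 to 1.43 (SPP1) and -0.044 to 0.86 (SPARC, the 1 change of sign). With a minimum of 10 CPM the PEO4-like share of SW620 replicate 3 was 1.30% over 43 genes, and 0.29% to 0.53% over 4 or 5 genes in the other SW libraries. For SPARC the latter corresponds to 301% to 359% of 5 counts in SW620 replicate 1 and 40.0% to 47.7% of 17 in SW620 replicate 2. In the SW480 libraries it corresponds to 21.2% to 42.2% of their SPARC counts. The part of these shares in the SPARC result was not tested. At these depths POSTN, and SPP1 and THBS2 in the SW lines, rest on 1 to 24 counts per library.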

Other observations

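The genes whose level across all 12 libraries lay closest to each member, by the root-mean-square difference of mean-centred log2 CPM among 11751 genes, were the following. For FN1 they were the hyaluronan receptor CD44 (0.53), THBS1 (0.68) and the TGF-β response gene PMEPA1 (0.72). CD44 stood at 160, 127 and 159 CPM in SW480, 26.9, 21.0 and 28.5 in SW620, 217.5, 75.4 and 74.9 in PEO4 control and 480.4, 311 and 267.5 with TGF-β, so that control replicate 1 and TGF-β replicate 1 were the highest of their groups for CD44 too. For THBS1 the closest was PMEPA1 (0.28), ahead of ARTN (0.49) and UPP1 (0.51). For SPARC they were CST6 (0.27), RNF152 (0.38) and ADGRF1 (0.57), which were likewise abundant in PEO4 and low in the SW lines. CST6 stood at 0.146, 0.323 and 1.67 CPM in SW620 replicates 1 to 3, the highest being the library with the PEO4-like share. TNC was closest to HES6 (0.42), SYT11 (0.42) and DAB2 (0.43), and TGFBI to DUSP4 (0.58), HDGFL3 (0.63) and ZNF469 (0.66). These distances carry no test.

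SPOCK2, a proteoglycan related to SPARC, was the most abundant of the other matricellular genes in PEO4, at 4319 ± 539 CPM in control and 4667 ± 277 with TGF-β (SD, n = 3; log2 fold change 0.08 ± 0.10, SE, edgeR's adjusted p 0.747), and was named after its values were seen. In SW620 it stood at 17.8 ± 23.5 CPM, and 966 of the 1141 counts of the group were in replicate 3, where the PEO4-like share corresponds to 113% to 118% of them.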
